A study of Homo sapiens with 12 samples.

Results

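The genes described here are 10 growth-arrest and stress genes, GADD45A, GADD45B, CDKN1A, PLK3, RRAD, MDM2, SESN1, SESN2, DDIT4 and PPP1R15A, in K562 cells, a chronic myeloid leukaemia line that is known to lack functional p53. They were taken by symbol from a table of 38272 loci, and 10 of 10 were found. GADD45A and SESN1 were named on 2 loci each, and the locus used was chosen by its higher mean FPKM over the 12 libraries, so that mean is not a result. Their chosen loci averaged 115 and 8.37 FPKM, against 0.672 and 1.1 FPKM for the other loci of the same names, which held at most 25 and 13 reads in any library. All 10 genes passed the filter on low values, a level of 1 FPKM or more in no fewer than 3 libraries.

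The study asked how RNA in this line responds to the cytokine tumour necrosis factor (TNF) when a long non-coding RNA is targeted. The TNFSG group received the siRNA Si623 and the GapmeR Gap01, a DNA-like antisense strand by which RNase H cuts the matching RNA, and then TNF at 20 ng/mL for 6 hours. The TNF group received a control siRNA and a control GapmeR and then the same TNF treatment. The SG group received Si623 and Gap01 without TNF, and the control group received the control siRNA and control GapmeR without TNF. Every group was therefore transfected, every group was the same cell line, and no untransfected cells were among the samples. Each group had 3 libraries that the series calls biological replicates. The lncRNA itself was not analysed here.

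Most of these genes are known as targets of p53, the transcription factor that stops the cell cycle after DNA damage. Several are also switched on without p53, through NF-kB, the transcription factor that TNF activates, or through ATF4, the factor of the integrated stress response. GADD45 proteins bind stress kinases and cyclin-dependent kinase partners, CDKN1A (p21) blocks cyclin-dependent kinases, sestrins and DDIT4 restrain the growth kinase mTORC1, PPP1R15A (GADD34) restarts translation after stress, and MDM2 targets p53 for degradation.

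Promoter letters are shown for the genes in which a searched motif was found, so that the response of each gene can be set beside the elements in front of it. RefSeq windows (build GRCh38.p14) were at hand for 8 of the 10 genes, in 13 windows, and the 250 bases before the RefSeq start are printed 5′ to 3′ on the strand of the gene. The genes without a window were GADD45A and RRAD. Capitals mark the matches, which are descriptions of letters and not measured binding sites. Only exact matches to a pattern were marked, so an element that departs from its pattern at any base stays in small letters. In SESN2 (chr1:28259268-28259517, plus strand) the capitals are a match to the NF-kB consensus, which lies on the opposite strand and begins 123 bases before the start. In PPP1R15A (chr19:48872171-48872420, plus strand) they are the cyclic AMP response element TGACGTCA, 58 bases before the start, and TATAAA, 30 bases before it. In GADD45B (chr19:2475877-2476126, plus strand) they are the E-box CACGTG, 168 bases before the start, and TATAAA, 31 bases before it. In PLK3 (chr1:44800127-44800376, plus strand) they are TGATGTAA, a match to TGATGNAA, the pattern bound by ATF4 with a C/EBP partner, 133 bases before the start. In MDM2 (chr12:68808767-68809016, plus strand, the third of 4 windows) they are TGACTCA, a match to the AP-1 pattern TGANTCA, 118 bases before the start. In SESN1 (chr6:109008989-109009238, minus strand, the third of 3 windows) they are a match to the p53 half-site consensus, 49 bases before the start.
SESN2: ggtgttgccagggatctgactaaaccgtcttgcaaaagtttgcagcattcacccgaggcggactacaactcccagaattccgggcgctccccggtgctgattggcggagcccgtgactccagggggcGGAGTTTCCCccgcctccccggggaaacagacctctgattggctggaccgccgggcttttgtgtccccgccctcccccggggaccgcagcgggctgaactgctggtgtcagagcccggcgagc
PPP1R15A: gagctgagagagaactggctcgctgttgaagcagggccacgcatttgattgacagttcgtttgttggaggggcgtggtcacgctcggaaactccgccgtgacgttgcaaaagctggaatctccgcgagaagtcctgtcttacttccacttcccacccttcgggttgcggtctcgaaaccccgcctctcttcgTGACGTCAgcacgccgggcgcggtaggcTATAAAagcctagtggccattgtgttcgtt
GADD45B: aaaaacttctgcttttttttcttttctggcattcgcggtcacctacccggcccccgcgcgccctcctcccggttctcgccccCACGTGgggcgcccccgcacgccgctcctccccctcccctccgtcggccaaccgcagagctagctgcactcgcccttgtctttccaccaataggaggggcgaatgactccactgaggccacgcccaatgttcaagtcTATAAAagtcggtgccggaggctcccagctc
PLK3: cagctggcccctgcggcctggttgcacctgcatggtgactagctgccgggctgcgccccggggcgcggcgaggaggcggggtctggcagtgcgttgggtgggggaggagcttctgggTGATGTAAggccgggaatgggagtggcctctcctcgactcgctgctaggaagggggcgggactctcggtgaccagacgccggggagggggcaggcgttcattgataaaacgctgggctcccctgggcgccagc
MDM2: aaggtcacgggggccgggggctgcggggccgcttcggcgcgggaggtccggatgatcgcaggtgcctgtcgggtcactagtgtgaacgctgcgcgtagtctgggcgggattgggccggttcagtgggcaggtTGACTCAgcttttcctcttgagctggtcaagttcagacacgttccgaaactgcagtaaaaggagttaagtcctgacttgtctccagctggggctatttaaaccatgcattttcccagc
SESN1: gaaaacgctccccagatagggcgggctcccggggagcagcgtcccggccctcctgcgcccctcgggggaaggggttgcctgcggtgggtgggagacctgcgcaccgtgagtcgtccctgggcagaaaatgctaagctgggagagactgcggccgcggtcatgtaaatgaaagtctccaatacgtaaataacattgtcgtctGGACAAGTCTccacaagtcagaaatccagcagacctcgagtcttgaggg

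Among 35116 RefSeq windows of the same length, 5.21% held the NF-kB consensus on either strand, 5.57% the p53 half-site, 1.65% TGACGTCA, 6.57% TGANTCA, 3.14% TGATGNAA, 10.7% TATAAA and 6.34% CACGTG. The windows of CDKN1A and DDIT4 held no match to any of the 7 motifs, which says only that these letters are not in those 250 bases. The starts used by GENCODE release 29 lie inside the printed windows of PLK3, PPP1R15A and GADD45B, so distances depend on the annotation.

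Expression was given as FPKM, fragments scaled by the length of the locus and the mapped fragments of the library. FPKM sums lay between 925955 and 1083476, and depths relative to one another, read from the whole-read steps of low loci, lay between 0.88 (control replicate 3) and 1.35 (TNFSG replicate 1). Read totals are unknown. All 9 erythroid markers listed for K562 were present at a mean of 1 FPKM or more. Of the markers of lymphoid, monocytic, epithelial, fibroblast and endothelial cells, 9 of the 10 with a locus were also at or above that level, none was at 0 in all libraries, and their summed levels overlapped between the groups of every comparison except 2. The sum for the endothelial marker lay at 41.2 to 51.4 FPKM in TNFSG, above 26.5 to 32.6 FPKM in TNF, and the sum for the B cell marker at 6.38 to 6.76 FPKM in TNFSG, above 2.58 to 5.26 FPKM in TNF. The sum for the fibroblast markers reached 409 FPKM in TNFSG and 1108 FPKM in TNF, where SG stayed at or under 9.5 FPKM and control at or under 10.8 FPKM, though the lowest libraries were at 8.11 FPKM in TNFSG, 3.35 in TNF, 4.1 in SG and 0.936 in control. That sum came mostly from COL1A2, a collagen gene, at 406 FPKM in TNFSG replicate 2, 1098 FPKM in TNF replicate 1 and 127 FPKM in TNF replicate 2, with the other 9 libraries at or under 6.39 FPKM. The part of these markers in the results was not tested. The TNF labels were checked on 10 textbook NF-kB targets, of which 9 rose in TNF over control, NFKBIA by 3.56 and ICAM1 by 4.40 on the log2 scale (limma adjusted p = 1.29e-07 and 2.42e-08). In bulk RNA, fewer cells that express a gene and less RNA per cell cannot be told apart.

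Replicate 1 stood apart for several of these genes. CDKN1A, SESN2 and PLK3 were highest in replicate 1 in all 4 groups, which held for 5.11% of the 32866 loci tested. In CDKN1A, replicate 1 was 1.53 times the mean of replicates 2 and 3 in TNFSG, 2.56 times in TNF, 1.25 times in SG and 3.55 times in control. In GADD45B the ratios were 1.53 in TNFSG, 2.26 in TNF, 0.797 in SG and 3.64 in control, so here the SG library went the other way. In the same libraries 4 of the 8 loci that carry the erythroid markers were lowest in replicate 1 in all 4 groups (5.23% of all loci), and HBZ, an embryonic globin, lay at 0.425 times in TNFSG, 0.307 times in TNF, 0.481 times in SG and 0.294 times in control. The part of this difference between libraries in the results was not tested, and the results are also given without replicate 1.

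**Figure D1:**
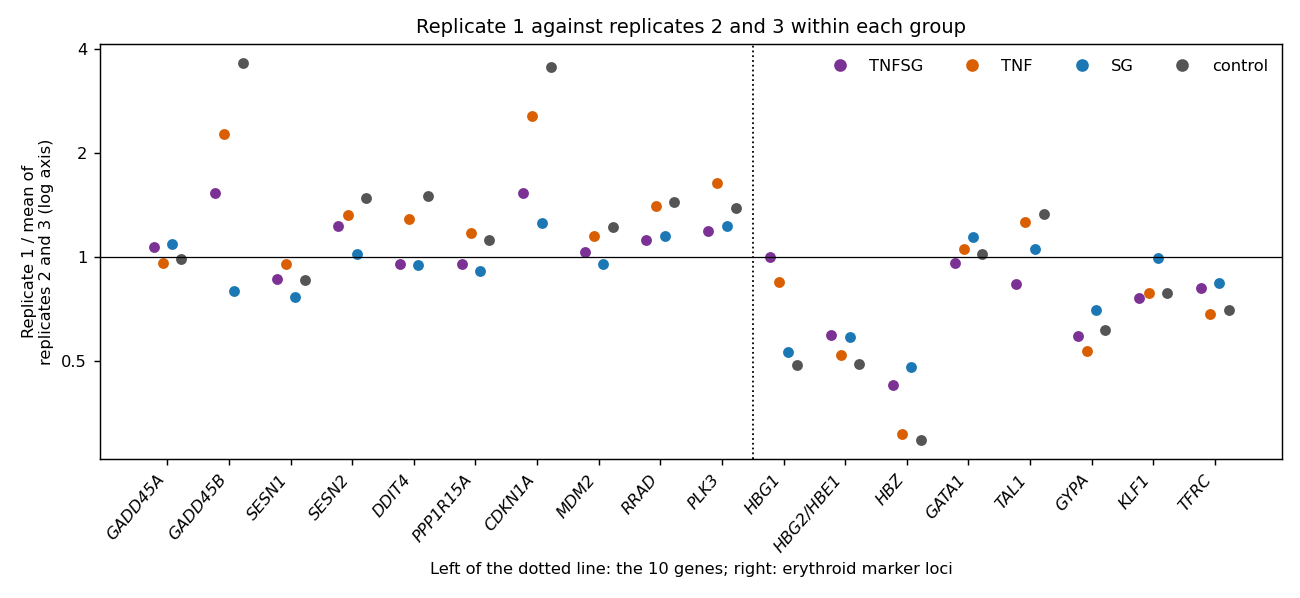
Replicate 1 divided by the mean of replicates 2 and 3 of the same group, on a log axis, for the 10 genes (left of the dotted line) and for loci of erythroid markers (right), with 1 point per group. CDKN1A lies above 1 in all 4 groups, at up to 3.55 in control, and HBZ lies below 1 in all 4, down to 0.294 in control.

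The first comparison asks what TNF did in cells with the control transfection. RRAD, GADD45A, SESN2, DDIT4 and PPP1R15A rose in TNF over control. No member fell, and MDM2 and SESN1, both known p53 targets, had point estimates below 0. GADD45B, CDKN1A and PLK3 had higher means in TNF but did not pass the test. Thus 5 of the 10 genes rose and 0 fell, where 1.18% of all loci tested rose and 0.277% fell, and 8 of the 10 had an unadjusted p under 0.05, where 11.2% of all loci did. The genes were proposed with their TNF response already known, so these counts describe them and are no evidence about the group.

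RRAD, a small GTPase of the RGK family that inhibits voltage-gated calcium channels, had by far the highest ratio of the 10. It lay at 31.1, 28.5 and 15.9 FPKM in TNF, against 0.772, 0.882 and 0.19 FPKM in control. All 3 TNF libraries were above all 3 control libraries, and replicate 3 was the lowest in both groups. RRAD passed the filter on low values only through the groups with TNF. Without TNF, SG replicate 2 alone, at 1.49 FPKM, reached 1 FPKM. The means were 25.2 ± 8.16 FPKM in TNF and 0.615 ± 0.372 FPKM in control (SD, n = 3 each), a ratio of 40.9. On the log2(FPKM + 1) scale, where changes of low loci come out too small, it rose by 3.99 ± 0.34 (SE, limma adjusted p = 2.66e-04). The call held in all 6 fits that left out a library of these groups and in all 10 other alternatives, with adjusted p values up to 0.0498. The genes whose pattern over the 12 libraries was most like that of RRAD were RELB (Pearson r = 0.992) and TNFAIP3 (r = 0.990), both textbook NF-kB targets, given as a description.

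GADD45A, which binds the stress kinase MAP3K4 and the CDK1 complex, was among the most abundant of the 10. It lay at 138, 139 and 148 FPKM in TNF, against 92.0, 87.7 and 99.6 FPKM in control. These groups did not overlap and replicates lay close together. Its mean was 142 ± 5.57 FPKM in TNF and 93.1 ± 6.06 FPKM in control (SD, n = 3 each), 1.52 times as high, and it rose by 0.60 ± 0.07 (log2, SE, limma adjusted p = 0.00233). The call held in all 6 fits that left out a library and was lost with only the compared groups in the fit, or without replicate 1 in every group, at adjusted p values of up to 0.0592.

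GADD45B is its relative with a similar role in stress kinase signalling and a known NF-kB target. In the mean over the 12 libraries, at 2.86 FPKM, GADD45B was the lowest of the 10. It lay at 6.63, 3.32 and 2.53 FPKM in TNF, against 2.66, 0.811 and 0.649 FPKM in control. Replicate 1 was the highest library in both groups, and the highest control library lay above the lowest TNF library, so the groups overlapped. The change was 1.14 ± 0.36 (log2, SE, limma adjusted p = 0.221), with a 95% interval from 0.34 to 1.94.

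CDKN1A, the inhibitor of cyclin-dependent kinases that carries much of p53's arrest signal, had the same shape. It lay at 22.6, 8.89 and 8.79 FPKM in TNF, against 10.9, 3.62 and 2.52 FPKM in control. Replicate 1 again stood well above the others in both groups and made them overlap, while replicates 2 and 3 of TNF lay above replicates 2 and 3 of control. The means were 13.4 ± 7.97 FPKM in TNF and 5.68 ± 4.56 FPKM in control (SD, n = 3 each), a ratio of 2.37, and the change was 1.19 ± 0.47 (log2, SE, limma adjusted p = 0.365). With replicate 1 removed from every group, an alternative chosen after seeing the data, the change was 1.29 (log2) and the limma adjusted p 0.0487. Over the other alternatives and the fits that left out a single library its adjusted p was between 0.0775 and 0.679.

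PLK3, a polo-like kinase that responds to stress and DNA damage, lay at 11.8, 6.80 and 7.61 FPKM in TNF, against 5.27, 3.47 and 4.19 FPKM in control. All TNF libraries were above all control libraries. The change was 0.85 ± 0.20 (log2, SE, limma adjusted p = 0.0841), with a 95% interval from 0.41 to 1.30. With a stricter filter, of 5 FPKM or more in no fewer than 3 libraries, PLK3 was called (limma adjusted p = 0.0488).

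SESN2, one of the sestrins, proteins that sense leucine and restrain mTORC1, lay at 48.5, 36.3 and 37.3 FPKM in TNF, against 23.8, 16.1 and 16.0 FPKM in control. No overlap was seen, with replicate 1 the highest in both. Its mean was 40.7 ± 6.78 FPKM in TNF and 18.6 ± 4.44 FPKM in control (SD, n = 3 each), a ratio of 2.18, and it rose by 1.10 ± 0.16 (log2, SE, limma adjusted p = 0.00932). The call held in all 6 fits that left out a library and without replicate 1 in every group, and was lost with only the compared groups in the fit (adjusted p = 0.148). Among the 13 windows searched, the SESN2 window printed above is the one that holds the NF-kB consensus, which 5.21% of all windows held. RRAD and GADD45A had no window to search, and the part of this match in the rise was not tested.

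SESN1, the sestrin best known as a p53 target, lay at 7.78, 9.10 and 7.23 FPKM in TNF, against 8.50, 9.66 and 10.2 FPKM in control. The groups overlapped and the change was -0.21 ± 0.16 (log2, SE, limma adjusted p = 0.724), with a 95% interval from -0.57 to 0.15. That interval leaves out a rise as large as that of SESN2.

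DDIT4 (REDD1), which activates the TSC complex upstream of mTORC1, was the most abundant of the 10. It lay at 279, 172 and 261 FPKM in TNF, against 139.6, 90.6 and 95.6 FPKM in control. The groups did not overlap, though TNF replicate 2 lay much nearer to the control libraries than the other TNF libraries did. The means were 237 ± 57.0 FPKM in TNF and 109 ± 26.9 FPKM in control (SD, n = 3 each), and it rose by 1.12 ± 0.23 (log2, SE, limma adjusted p = 0.0472). The call was lost without TNF replicate 1, TNF replicate 3, control replicate 2 or control replicate 3, with adjusted p values up to 0.178. It was also lost with no filter, without the trend, with only the compared groups and without replicate 1 in every group (up to 0.25).

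PPP1R15A, the stress-induced subunit that leads protein phosphatase 1 to the translation factor eIF2alpha, lay at 44.1, 36.6 and 39.1 FPKM in TNF, against 29.4, 26.6 and 25.8 FPKM in control. There was no overlap of the groups. The means were 39.9 ± 3.84 FPKM in TNF and 27.3 ± 1.93 FPKM in control (SD, n = 3 each), 1.46 times as high, and it rose by 0.53 ± 0.09 (log2, SE, limma adjusted p = 0.0212). Leaving out any one of the same 4 libraries as for DDIT4 ended the call, with adjusted p values up to 0.0963, as did no trend, only the compared groups or the removal of replicate 1 from every group (up to 0.168). Its closest pattern over the 12 libraries was that of TNFRSF10B (r = 0.979) and BBC3 (r = 0.976), both on the list of p53 targets below.

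MDM2, the ubiquitin ligase that p53 induces against itself, lay at 20.0, 18 and 16.7 FPKM in TNF, against 21.9, 17.0 and 18.9 FPKM in control. The groups overlapped, and the change was -0.07 ± 0.10 (log2, SE, limma adjusted p = 0.873), with a 95% interval from -0.29 to 0.15. Altogether 6 of the 10 genes had all TNF libraries above all control libraries, namely RRAD, GADD45A, SESN2, DDIT4, PPP1R15A and PLK3, where 7.59% of all loci did, and 0 had all below, where 8% did. With replicate 1 removed from every group, 3 of the 10 were called as rises, SESN2, CDKN1A and RRAD. Over all loci that fit called 258, of which 219 were rises.

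**Figure D2:**
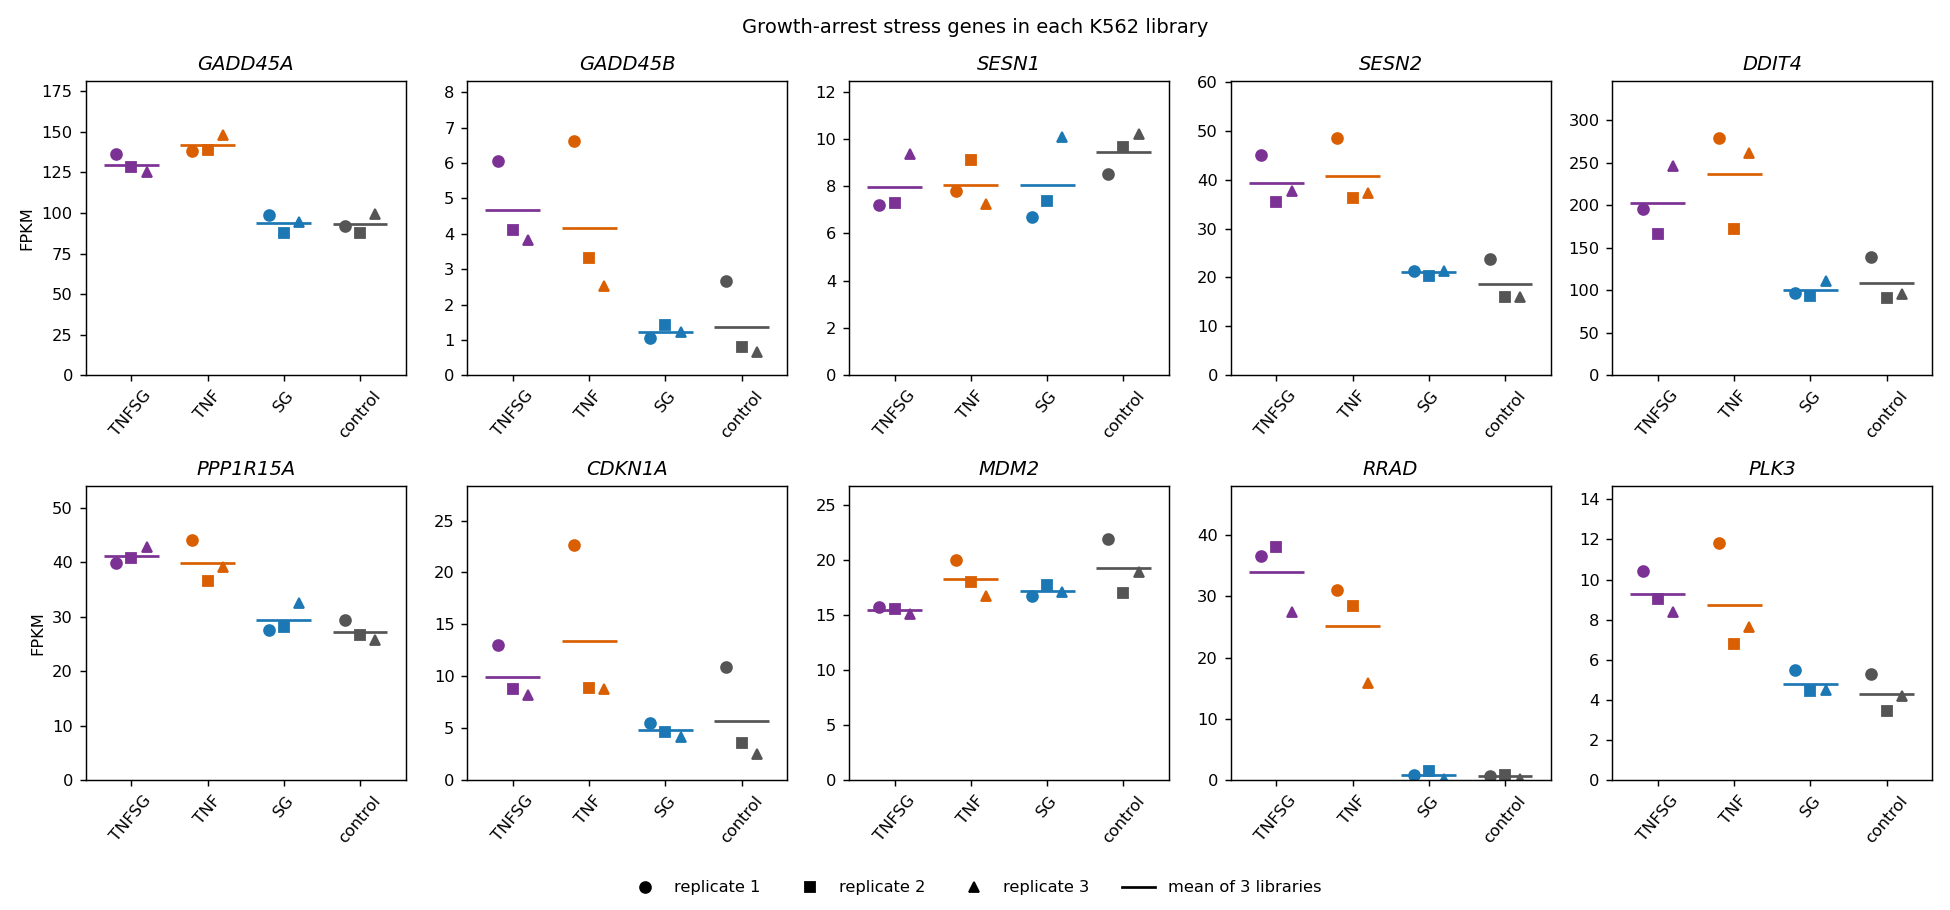
FPKM of each of the 10 genes in the 12 libraries, with groups along the x axis, marker shapes for replicates and a line at the mean of 3 libraries. RRAD lies between 15.9 and 38.1 FPKM in the 6 libraries with TNF and between 0.134 and 1.49 FPKM in the 6 without, while MDM2 and SESN1 show no such step.

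The second comparison asks for the TNF response after the targeted transfection. Its means come from other libraries than those of the first. Both tests share the spread of all 12 libraries in one fit, so they are not independent. RRAD, GADD45A, SESN2 and PPP1R15A rose in TNFSG over SG, and no member fell. DDIT4, PLK3, GADD45B and CDKN1A had higher means and did not pass, and MDM2 and SESN1 again had small estimates. Thus 4 of the 10 rose and 0 fell, where 1.37% of all loci tested rose and 0.277% fell, and 7 had an unadjusted p under 0.05, where 11.4% of all loci did. Here too the genes were chosen with earlier results of these data known, so the counts only describe them.

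RRAD lay at 36.6, 38.1 and 27.4 FPKM in TNFSG, against 0.931, 1.49 and 0.134 FPKM in SG. The groups did not overlap and the ratio of means was 40.0, with a rise of 4.30 ± 0.34 (log2, SE, limma adjusted p = 1.73e-04). This call held in all 6 fits that left out a library and in all 10 other alternatives.

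GADD45A lay at 136, 128 and 125 FPKM in TNFSG, against 98.8, 87.4 and 94.4 FPKM in SG. The groups did not overlap, and it rose by 0.47 ± 0.07 (log2, SE, limma adjusted p = 0.00976). Without TNFSG replicate 1 the adjusted p was 0.0523, and the call was also lost without the trend, with only the compared groups and without replicate 1 in every group (up to 0.124).

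SESN2 lay at 45.0, 35.5 and 37.7 FPKM in TNFSG, against 21.4, 20.4 and 21.3 FPKM in SG. No library of either group came near the other group, and it rose by 0.87 ± 0.16 (log2, SE, limma adjusted p = 0.0318). None of the 6 leave-one-out fits kept the call, with adjusted p values from 0.0718 to 0.132, though it held without replicate 1 in every group. Without the trend the adjusted p was 0.052.

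PPP1R15A lay at 39.8, 40.8 and 42.8 FPKM in TNFSG, against 27.6, 28.2 and 32.5 FPKM in SG. The groups did not overlap, and it rose by 0.47 ± 0.09 (log2, SE, limma adjusted p = 0.0355). It passed without SG replicate 3 but not in the other leave-one-out fits, 5 in number, with adjusted p values up to 0.130, and its call was also lost in the same 3 other settings as that of GADD45A (up to 0.144).

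DDIT4 lay at 196, 166 and 246 FPKM in TNFSG, against 96.6, 93.2 and 111 FPKM in SG. These groups did not overlap either, but the change of 0.99 ± 0.23 (log2, SE) had a limma adjusted p of 0.0736, and of 0.0482 with the filter at 5 FPKM. PLK3 lay at 10.4, 9.05 and 8.37 FPKM in TNFSG, against 5.48, 4.44 and 4.48 FPKM in SG. It too had every TNFSG library above every SG library, with a change of 0.82 ± 0.20 (log2, SE, limma adjusted p = 0.0951).

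GADD45B lay at 6.06, 4.10 and 3.83 FPKM in TNFSG, against 1.05, 1.41 and 1.23 FPKM in SG. Here the groups did not overlap, since no SG library stood high, and the change was 1.32 ± 0.36 (log2, SE, limma adjusted p = 0.135). CDKN1A lay at 13.0, 8.78 and 8.16 FPKM in TNFSG, against 5.55, 4.67 and 4.21 FPKM in SG. It also did not overlap, and its change was 0.90 ± 0.47 (log2, SE, limma adjusted p = 0.526). Its SE is that of the pooled spread of all 4 groups, to which replicate 1 of TNF and of control contributed.

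MDM2 lay at 15.7, 15.5 and 15.1 FPKM in TNFSG, against 16.7, 17.7 and 17.1 FPKM in SG. All TNFSG libraries were below all SG libraries, by a change of -0.14 ± 0.10 (log2, SE, limma adjusted p = 0.665). SESN1 lay at 7.19, 7.28 and 9.38 FPKM in TNFSG, against 6.70, 7.38 and 10.1 FPKM in SG, with overlapping groups and a change of -0.01 ± 0.16 (limma adjusted p = 0.996). Altogether 8 of the 10 genes had all TNFSG libraries above all SG libraries, where 8.13% of all loci did, and 1 had all below, where 10% did. With replicate 1 removed from every group, SESN2 and RRAD were called as rises. Over all loci that fit called 213, of which 200 were rises.

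Whether the targeted transfection changed the TNF response was tested as the difference between both TNF responses. None of the 10 genes passed (0 called with limma, where 0.00913% of all loci were called), and 0 had an unadjusted p under 0.05, where 3.75% of all loci did. The difference, TNFSG over SG minus TNF over control, was -0.13 ± 0.10 for GADD45A and 0.31 ± 0.48 for RRAD (log2, SE, limma adjusted p = 1 each). Its 95% interval was -0.36 to 0.09 for GADD45A, -0.35 to 0.23 for PPP1R15A and -0.75 to 0.29 for SESN2. For CDKN1A it was -1.77 to 1.19 and for RRAD -0.77 to 1.39, so a difference of 1 on the log2 scale lay inside the interval of these genes.

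The targeted transfection itself was compared without and with TNF. In SG over control 0 of the 10 genes were called with limma, where 0.17% of all loci were, and 0 had an unadjusted p under 0.05, where 9.86% did. The estimates lay between -0.22 ± 0.16 for SESN1 and 0.19 ± 0.16 for SESN2 (log2, SE, limma adjusted p = 0.713 and 0.762). For RRAD the change was 0.15 with a 95% interval from -0.61 to 0.91, and for GADD45A it was 0.01 with one from -0.15 to 0.17. No gene had SG libraries all above (10.3% of all loci) or all below (4.62%) the control libraries. Over all loci tested, the median change in SG over control was 0.08 (log2), with 20113 loci higher and 12675 lower.

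In TNFSG over TNF 0 of the 10 were called with limma, where 0.128% of all loci were, and 1 had an unadjusted p under 0.05, where 9.11% did. That gene was MDM2, at a change of -0.22 ± 0.10 (log2, SE, unadjusted p = 0.0457 and limma adjusted p = 0.536). MDM2 and GADD45A had all TNFSG libraries below all TNF libraries, which 4.73% of all loci did, and no member had all above, which 10% did. Over all loci tested, the median change in TNFSG over TNF was 0.08 (log2), with 20091 loci higher and 12723 lower. MDM2 averaged 15.5 ± 0.303 FPKM in TNFSG and 18.3 ± 1.64 FPKM in TNF (SD, n = 3 each). GADD45A averaged 129.9 ± 5.72 FPKM in TNFSG and 142 ± 5.57 FPKM in TNF (SD, n = 3 each), a change of -0.13 ± 0.07 (log2, SE, limma adjusted p = 0.65). RRAD averaged 34.0 ± 5.83 FPKM in TNFSG and 25.2 ± 8.16 FPKM in TNF (SD, n = 3 each), and its libraries overlapped.

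**Figure D3:**
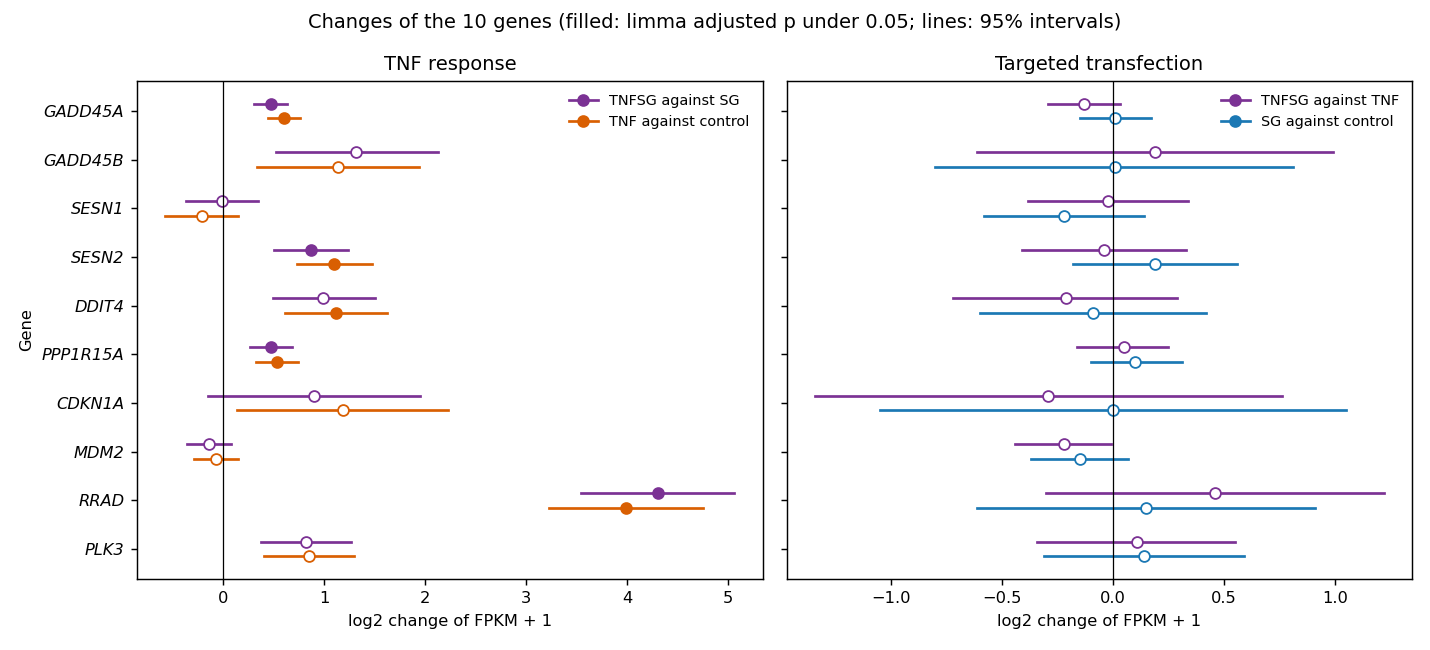
Changes of the 10 genes on the log2(FPKM + 1) scale with 95% intervals, for the TNF comparisons and for the comparisons of the targeted transfection. RRAD stands at 4.30 and 3.99 in the TNF comparisons, and all 10 genes lie within 0.46 of 0 in the comparisons of the targeted transfection.

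Most of the genes shared the split between groups with and without TNF, but not the full order of the 4 groups. GADD45B, RRAD, PPP1R15A and PLK3 had their highest mean in TNFSG, GADD45A, SESN2, DDIT4 and CDKN1A in TNF, and MDM2 and SESN1 in control. For the first 8 genes, both groups with TNF averaged above both groups without it, at a median change over the 10 genes of 0.85 in TNFSG over SG and 0.98 in TNF over control (log2), against -0.03 and -0.02 over all loci tested. The groups that share a TNF state did not differ beyond the test in any of the 10.

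Other known p53 targets were listed as a comparison, again with earlier results of these data known. Of the 23 tested, 4 rose and 1 fell in TNF over control, and the counts were the same in TNFSG over SG, where 1.18% and 1.37% of all loci rose and 0.277% fell in each. BTG2, an antiproliferative gene, averaged 77.8 ± 12.4 FPKM in TNF and 25.1 ± 2.47 FPKM in control (SD, n = 3 each), and it rose by 1.59 (log2, limma adjusted p = 1.21e-04). The apoptosis genes PMAIP1 (NOXA) and BBC3 (PUMA) rose by 1.12 and 1.08 (log2, limma adjusted p = 2.05e-05 and 0.00416), and the death receptor gene TNFRSF10B by 1.08 (limma adjusted p = 0.00567). AEN, an apoptosis-enhancing nuclease, fell by 0.47, with a limma adjusted p of 0.0323, and 5 of the 6 leave-one-out fits lost this call. Over the 23 genes the median change was 0.11 in TNF over control and 0.13 in TNFSG over SG. BTG2 was also the gene of this list with the lowest p in TNFSG over TNF, at -0.72 ± 0.12 (log2, SE, limma adjusted p = 0.0691). This gene was called with the filter at 5 FPKM (limma adjusted p = 0.0371) and with median-ratio scaling (0.0377).

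**Figure D4:**
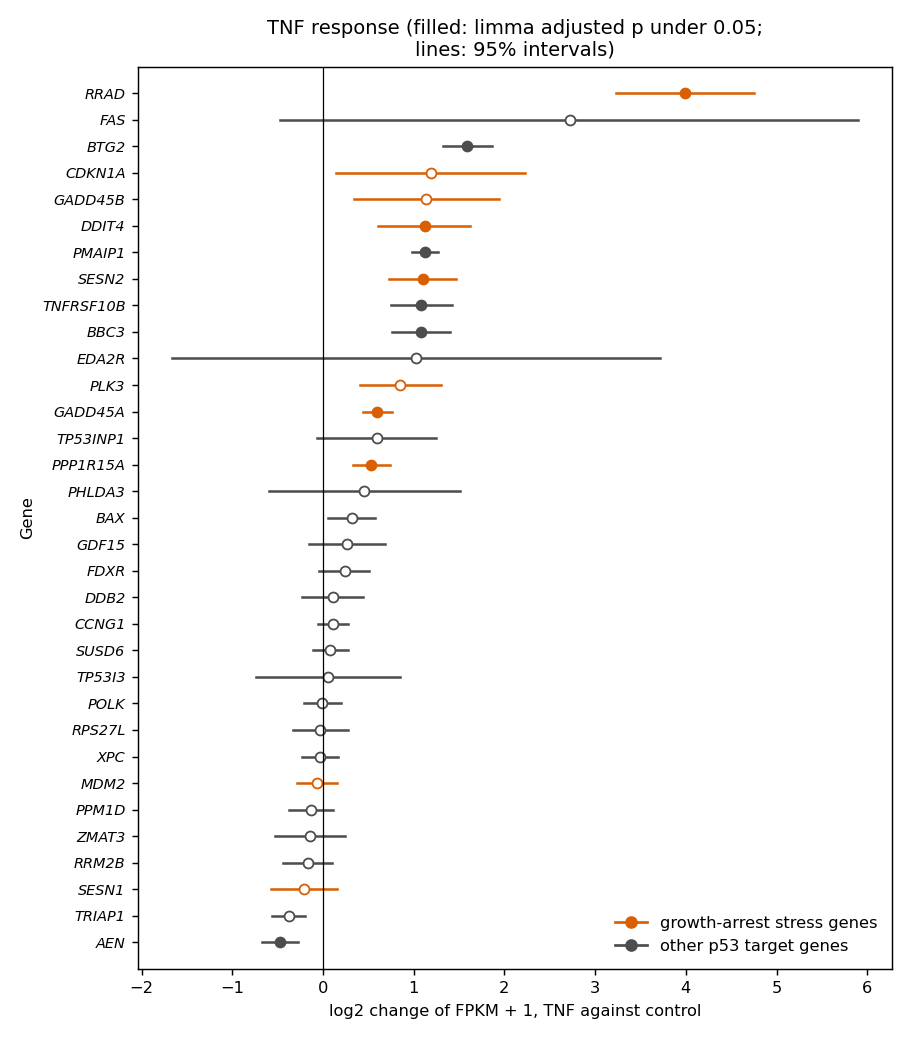
Change in TNF over control on the log2(FPKM + 1) scale, with 95% intervals, for the 10 genes and for the 23 other p53 target genes tested. RRAD at 3.99 is the highest point of both lists, and AEN at -0.47 is the filled point on the left.

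Of the relatives and regulators of p53, 0 of 12 were called with limma in either TNF comparison, with 2 at an unadjusted p under 0.05 in each, where 11.2% of all loci in TNF over control and 11.4% in TNFSG over SG had one. MDM4, the relative of MDM2 that also restrains p53, had a difference of 0.09 ± 0.09 in TNF over control (log2, SE, limma adjusted p = 0.796) and of -0.27 ± 0.09 in TNFSG over TNF (limma adjusted p = 0.392).

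The pathways in which the genes act were counted in the same way. Their counts stand beside 1.18% of all loci that rose and 0.277% that fell in TNF over control, 1.37% and 0.277% in TNFSG over SG, and the 11.2% and 11.4% with an unadjusted p under 0.05. Of the GADD45 relatives and MAP kinase partners 0 of 11 were called in either TNF comparison, with 1 at an unadjusted p under 0.05 in each, and the third paralog GADD45G was at 0.04 ± 0.20 in TNF over control (log2, SE, limma adjusted p = 0.976). Of the integrated stress response genes 0 of 14 were called in TNF over control, with 3 at an unadjusted p under 0.05. EIF2AK2 (PKR), a kinase of eIF2alpha that double-stranded RNA activates, rose in TNFSG over SG at 17.8 ± 0.276 FPKM in TNFSG and 12 ± 0.672 FPKM in SG (SD, n = 3 each, limma adjusted p = 0.00976), a call lost without TNFSG replicate 1 or SG replicate 3 (up to 0.0523). PPP1R15B, the constitutive relative of PPP1R15A, was at 0.19 ± 0.09 in TNF over control (log2, SE, limma adjusted p = 0.491).

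Of the sestrin and mTORC1 genes 0 of 21 were called in TNF over control, with 2 at an unadjusted p under 0.05. PRKAB1, a subunit of the energy-sensing kinase AMPK, fell in TNFSG over SG by 0.31 on the log2 scale (limma adjusted p = 0.0355), a call lost in all 6 leave-one-out fits. SESN3 varied widely, with a difference of -1.93 ± 0.71 in TNF over control (log2, SE, limma adjusted p = 0.313). With replicate 1 removed from every group, chosen after seeing the data, it was at -2.26 (log2, limma adjusted p = 0.0496). Of the cyclin-dependent kinase inhibitors and their cyclins 1 of 14 rose in each TNF comparison. That gene was CCND2, a D-type cyclin that promotes entry into the cycle, at 35.8 ± 4.52 FPKM in TNF and 13.8 ± 0.854 FPKM in control (SD, n = 3 each, limma adjusted p = 1.09e-04). CCND1 averaged 354 ± 67.5 FPKM in TNF and 130.2 ± 31.2 FPKM in control (SD, n = 3 each), with a limma adjusted p of 0.0516. It was called with a pseudocount of 0.1 (0.0499) and with the filter at 5 FPKM (0.0301). Of the relatives of PLK3 and RRAD (PLK1, PLK2, PLK4, GEM and REM2) 0 of 5 were called with limma in TNF over control, and 0 had an unadjusted p under 0.05. In TNFSG over SG 0 of 5 were called and 1 had an unadjusted p under 0.05. PLK2 had the lowest p in TNF over control, at 0.45 ± 0.20 (log2, SE, limma adjusted p = 0.454).

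Each gene was also set beside the named loci whose pattern over the 12 libraries was most like its own, among 11913 candidates averaging at least 5 FPKM. The libraries with TNF share a step that many loci have, so the coefficients are descriptions. The closest pair was STAT5A (r = 0.978) and ASB1 (0.975) for GADD45A, and BIRC2 (0.985) and ILK (0.978) for GADD45B. For SESN2 it was ADAM8 (0.988) and TLDC1 (0.986), for DDIT4 RP11-442H21.2 (0.986) and SEMA4C (0.97), for CDKN1A FBRS and SAT1 (0.974 each), and for PLK3 MED15 (0.983) and GRINA (0.982). The genes without a TNF step had looser neighbours, with FAM178A (0.933) and SIAE (0.928) for MDM2 and HMGN2P8 (0.813) and VPS37A (0.807) for SESN1.

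GENCODE release 29 (hg38) places GADD45A at 67685061 to 67688338 on chromosome 1, GADD45B at 2476122 to 2478259 on chromosome 19, RRAD at 66921679 to 66925644 on chromosome 16 and SESN2 at 28259527 to 28282491 on chromosome 1, with no other annotated gene overlapping them. The same holds for PPP1R15A at 48872392 to 48876057 on chromosome 19. Genes on the opposite strand overlap DDIT4 (DDIT4-AS1), CDKN1A (DINOL), PLK3 (TCTEX1D4), SESN1 (AL390208.1) and MDM2 (CPM among 4 overlapping genes), and the strand setting of the counting is not given in the sources used here. Overlap was judged on whole gene spans and not on exons, and each of these 5 genes has a locus that carries its name alone. Whether reads of the overlapping partners enter the FPKM of these 5 genes was not tested.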

How the data were processed

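RNA-seq of K562 cells was analysed in 12 libraries, 3 in each of 4 groups taken from the labels. Single reads of 50 bases were sequenced, per the labels' protocols. The submitters' processing notes name TopHat2 2.0.14, Bowtie2 2.2.9, Cufflinks and the build hg38. The FPKM values deposited by the authors are scaled by locus length and library size. No source used here gives the Cufflinks version, the annotation release or any further scaling.

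From these, log2(FPKM + 1) was fitted for the 32866 loci that reached 1 FPKM in 3 libraries or more, with 1 mean per group over all 12 libraries, by limma 3.58.1 in R 4.3.3 (moderated test with a trend, two-sided). P-values were adjusted by Benjamini-Hochberg over all loci tested, with a threshold of 0.05. They measure only the spread between these libraries. A fold change is relative to the deposited scaling. Depth is known only as a ratio between libraries, so no count test was run. It was taken from the most frequent FPKM ratio to control replicate 1 over loci detected in both libraries. Read numbers of low loci were inferred from whole-read steps (tolerance 0.03). The fit was tested on simulated data.

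The 10 genes and the comparison lists were chosen with earlier results of these data known. Named besides them are up to 4 genes per list of lowest p in TNF over control, up to 2 in TNFSG over TNF, the relatives of the genes, and for each gene the 2 loci of most similar pattern. TNFRSF10B, AEN, and CCND2, EIF2AK2 and PRKAB1 in TNFSG over SG were named after their values were seen. Listed genes that had no locus of that name in the table were not analysed here, and some genes of the lists are not reported here. The alternatives were a replicate block, pseudocounts of 0.1 and 0.5, no filter or one at 5 FPKM, median-ratio scaling, no trend, only the compared groups, the sum of all loci of a symbol and each library left out. Removal of replicate 1 from every group was chosen after seeing the data. Motifs were searched on both strands of the 250 bases before RefSeq starts, by name for the NF-kB consensus and the p53 half-site and by letters for the others. In the 10 genes TATAAA was kept on the gene's strand only, and motifs that read the same on both strands were counted once. Tables and figures were made with Python 3.11.15, pandas 2.3.3 and matplotlib 3.10.9.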

Additional observations from a re-analysis of the deposited data

How the results depend on the processing

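Of the 10 genes, 5 were called in TNF over control and 4 in TNFSG over SG. These counts were 6 and 5 with the filter at 5 FPKM (PLK3 added in the first and DDIT4 in the second), 3 and 1 without the trend, 1 (RRAD) and 2 (SESN2 and RRAD) with only the compared groups, 3 and 2 with replicate 1 removed from every group (chosen after seeing the data), and 3 to 5 and 1 to 3 with single libraries left out. In SG over control, TNFSG over TNF and the difference of the TNF responses the count was 0 under every alternative. Over all loci, 478 were called in TNF over control, 622 with the filter at 5 FPKM and 390 without the trend. There were 172 with only the compared groups, 258 without replicate 1 and 294 to 431 with single libraries left out. In TNFSG over SG 540 were called, 557 with the filter at 5 FPKM and 454 without the trend. There were 256 with only the compared groups, 213 without replicate 1 and 299 to 368 with single libraries left out. In SG over control 56 were called, 115 with the filter at 5 FPKM, 16 without the trend, 7 with only the compared groups, 12 without replicate 1 and 10 to 23 with single libraries left out. In TNFSG over TNF 42 were called, 97 with the filter at 5 FPKM, 78 with median-ratio scaling, 18 without the trend, 2 with only the compared groups, 3 without replicate 1 and 3 to 18 with single libraries left out. In the difference 3 were called, 12 with a pseudocount of 0.1, 5 without replicate 1 and 1 to 6 with single libraries left out. Fits with fewer libraries have fewer degrees of freedom; otherwise the cause was not tested. Median-ratio scaling changed the split to 17 rises and 66 falls in SG over control, against 18 and 38, and to 19 and 59 in TNFSG over TNF, against 19 and 23.

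With the replicate block, 831 loci were called in TNF over control and 843 in TNFSG over SG, with PLK3 added in both (limma adjusted p = 0.012 and 0.0136) and DDIT4 added in TNFSG over SG (0.028). The block also added EIF2AK2 (0.0317) and CCND1 (0.00383) in TNF over control, and BTG2 (0.0497) and CCND1 (0.0469) in TNFSG over TNF. After each group's mean was taken off, the 18 same-numbered pairs of libraries from different groups correlated at 0.007 to 0.138 (median 0.0225). Only 1 of these pairs was above 0.1. The 36 other pairs lay at -0.093 to 0.043 (median -0.0165). Of the 12 libraries, 7 had their closest library of another group under the same number. The titles of the libraries give the same letter, A, B or C, to all libraries of a number. What the libraries of a number share beyond that letter is not given by the labels and was not tested.

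Among the other genes named as called in the TNF comparisons, BTG2, PMAIP1 and CCND2 kept their calls under every alternative. At least 1 setting other than a left-out library ended a call of BBC3 (limma adjusted p up to 0.122), TNFRSF10B (0.119), AEN (0.208), EIF2AK2 (0.122) and PRKAB1 (0.174). In TNF over control EIF2AK2 (0.0218) and PRKAB1 (0.0431) were called with the filter at 5 FPKM, and EIF2AK2 without control replicate 1 (0.0497). The sign changed only where no call was made. Under median-ratio scaling SESN1 was at 0.02 in TNFSG over SG, GADD45A at -0.08 and GADD45B at -0.04 in SG over control, and PPP1R15A at -0.03 in TNFSG over TNF. With summed loci SESN1 was at 0.13 in TNFSG over SG and 0.12 in TNFSG over TNF. Without replicate 1, REM2 was at 0.28 in TNF over control, GADD45A at -0.04 and DDIT4 at 0.13 in SG over control, SESN1 at 0.02 in TNFSG over TNF, and GADD45B at -0.08 and PLK3 at 0.06 in the difference. With single libraries left out, the ranges across 0 in TNF over control were -0.15 to 0.02 for MDM2, -0.37 to 0.07 for REM2, -0.13 to 0.16 for GADD45G and -0.06 to 0.46 for GEM. In TNFSG over SG SESN1 was at -0.12 to 0.15. In SG over control they were -0.03 to 0.06 for GADD45A, -0.21 to 0.37 for GADD45B, -0.21 to 0.10 for DDIT4, -0.36 to 0.52 for CDKN1A and -0.10 to 0.47 for RRAD. In TNFSG over TNF they were -0.13 to 0.07 for SESN1, -0.14 to 0.09 for SESN2, -0.50 to 0.13 for CDKN1A, -0.01 to 0.12 for PPP1R15A, -0.04 to 0.32 for PLK3 and -0.04 to 0.51 for GADD45B. In the difference they were -0.34 to 0.01 for DDIT4, -0.17 to 0.18 for PLK3, -0.12 to 0.01 for PPP1R15A, -0.81 to 0.13 for CDKN1A, -0.17 to 0.51 for GADD45B, -0.01 to 0.56 for RRAD and -0.16 to 0.01 for MDM2. In control, RRAD lay at 0.19 to 0.882 FPKM and GADD45B at 0.649 to 2.66 FPKM. How far depth limits such low genes was not tested.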
